A study of Drosophila melanogaster with 7 samples.

Results

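The genes described here are 101 protein-coding genes of Drosophila melanogaster that were listed only by an annotation number and whose RNA was lower in intestinal stem cells overexpressing Sc. A CG number is the provisional name that the fly genome project gave to a predicted gene. Members were chosen by their FPKM in the same 7 libraries, as the CG-numbered genes with at least 5 FPKM in each Ctrl library and a lowest Ctrl value at least 2 times the highest ScOE value. FPKM counts fragments relative to the transcript's length and to all mapped fragments of the library, so levels can be set side by side between genes. A CG number was carried by 7339 of the 17481 genes listed, and 2255 of these reached 5 FPKM in every Ctrl library. The limits were met by 101 of them, or 4.48%. Among all 5619 genes above that level 4.31% met them, and among the 3364 without a CG number 4.19% did. The CG-numbered genes therefore met them at about the rate of other genes. Genes without a CG number are all other entries, and of the 141 that met the limits 120 had an annotated coding length. With each library scaled to the same FPKM total only 21 of the 101 met the limits.

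RNA was sequenced from GFP-labelled intestinal stem cells sorted by FACS from adult midguts at day 2, with about 10000 cells for each sample and an RNA amplification step before library construction. The Ctrl group held 3 libraries of wild-type genotype and the ScOE group held 4 libraries with Sc overexpression. The labels do not name the driver of the transgene or of GFP, and they do not say whether libraries came from separate groups of flies. The p-values below rest on the spread among the 7 libraries alone, and how much of it is technical is unknown. A library is a bulk sample, so fewer cells of a type and less RNA per cell cannot be told apart.

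Intestinal stem cells renew the midgut epithelium, and the cells they give rise to mature into enterocytes, which absorb nutrients, or into enteroendocrine cells, which secrete hormones. Sc, the product of scute, is a proneural transcription factor of the basic helix-loop-helix family that acts in enteroendocrine fate. Genes that keep a CG number are mostly those without a described mutant or biochemical role. Where a role is given below it comes from a newer symbol or a synonym in the reference gene tables, and it is background rather than a result.

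The overexpressed gene sc lay between 0.886 and 2.44 FPKM in Ctrl and between 66.0 and 190 FPKM in ScOE, and the groups did not overlap. Its mean was 95.5-fold higher, and in an exact two-sided permutation test of the difference in mean FPKM 2 of the 35 splits were at least as far apart (p = 0.0571). The stem cell and enteroblast marker esg was found in all 7 libraries and averaged 302 ± 66.5 FPKM over the Ctrl libraries and 235 ± 19.1 FPKM over the ScOE libraries (SD over 3 and 4 libraries). FPKM values keep no read numbers, so depth is unknown. Genes at 1 FPKM or more numbered 7791 to 8182 in Ctrl libraries and 8093 to 8381 in ScOE libraries. Several libraries stood apart. Ctrl 1 had the lowest summed level of digestive enzymes in its group and ScOE 1 in the other, and ScOE 3 held contractile muscle transcripts such as Mf (62.3 FPKM, against 2.44 FPKM or less in every other library).

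The 7 libraries chose the members, so the values that follow describe these genes and are not tests of Sc. Summed over the 101 genes, the level was 15801, 13427 and 12999 FPKM in Ctrl 1, 2 and 3. In ScOE 1, 2, 3 and 4 it was 3324, 2770, 2856 and 2488 FPKM. The FPKM of all genes also summed to less in ScOE, to 1059340 to 1382540 against 1924960 to 2614340 in Ctrl. As a share of that total the 101 genes held 0.697%, 0.697% and 0.497% in Ctrl 1 to 3 and 0.240%, 0.262%, 0.222% and 0.204% in ScOE 1 to 4, so the shares were closer together than the sums. The median fold between group means was 4.00, with a range from 2.32 to 425. The lowest Ctrl value was 2 to 3 times the highest ScOE value for 64 genes, 3 to 5 times for 22, 5 to 10 times for 11 and more than 10 times for 4. RNA of every member was still listed above 0 in all 4 ScOE libraries. In 27 genes each ScOE library was under 5 FPKM, and in 5 genes each was under 2 FPKM.

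**Figure D1:**
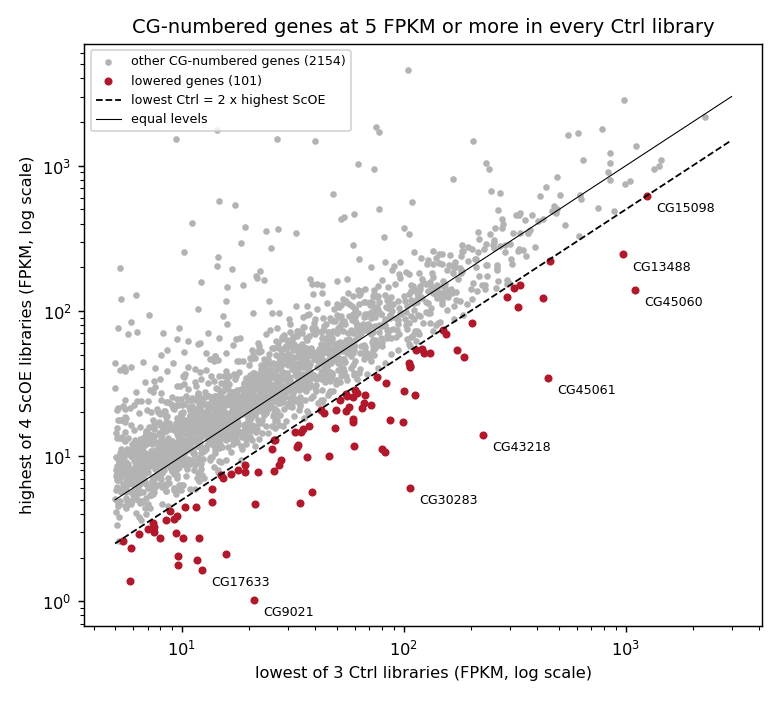
Lowest Ctrl FPKM against highest ScOE FPKM, both on log axes, for the 2255 CG-numbered genes at 5 FPKM or more in every Ctrl library. The 101 lowered genes (red) lie on or below the dashed line at which the lowest Ctrl value is 2 times the highest ScOE value, and most of them lie close to it.

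At the edge of the limits the choice rested on small differences. D2hgdh (CG3835) was just inside, with a lowest Ctrl value of 26.0 FPKM and a highest ScOE value of 13.0 FPKM, followed by CG11141 (15.0 and 7.43 FPKM) and CG5346 (26.3 and 13.0 FPKM). Just outside were CG33985 (5.20 and 2.60 FPKM), CG8414 (18.4 and 9.33 FPKM) and CG6707 (184 and 93.9 FPKM). The members with the lowest Ctrl level were CG9981 at 5.43 FPKM, CG33226 at 5.82 FPKM and Dus3 (CG10463) at 5.87 FPKM in their lowest library. CG6465 missed that level at 4.58 FPKM, although its highest ScOE library held 0.510 FPKM.

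Of the 101 genes, 21 now have a symbol other than their CG number in the reference table, which is 20.8%. Among the 2125 other CG-numbered genes above the Ctrl level that have a symbol there, 29.3% do. A synonym of known meaning placed another 16 members, so that 37 genes could be put into a functional class and 64 could not.

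Serine proteases formed the class with the largest median fold. These enzymes cut proteins at a catalytic serine and include the trypsins of the gut, while some relatives have lost that activity. A protease synonym marks 6 members, namely CG30283, CG30287, CG33226, CG17571, CG7142 and CG30414. Their group means differed 6.14-fold to 26.3-fold, with a median of 10.9, against 4.00 for all 101 genes.

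CG30283 (synonyms SP37 and SPH37, which its neighbours CG30287 and CG33226 carry as well) was at 176, 106 and 121 FPKM in Ctrl 1, 2 and 3, while ScOE 1 to 4 held 5.62, 6.05, 5.42 and 3.38 FPKM. Its Ctrl libraries all lay far above the ScOE range. CG17571 (SP83) was at 34.0, 96.9 and 84.0 FPKM in Ctrl, and its ScOE level was 2.41, 3.73, 4.78 and 1.81 FPKM in ScOE. Ctrl 1 was the lowest Ctrl library for this gene and the highest for CG30283, so the proteases did not share an order within the group. CG7142 (SP132) was at 82.5, 64.4 and 59.8 FPKM in Ctrl and at 11.7, 9.92, 8.18 and 6.23 FPKM in ScOE. The other 3 were less abundant, at 18.6 ± 6.09 FPKM for CG30287, 13.1 ± 4.60 FPKM for CG30414 and 7.81 ± 3.40 FPKM for CG33226 in Ctrl (SD, n = 3). Their ScOE means lay between 1.27 and 1.59 FPKM.

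**Figure D2:**
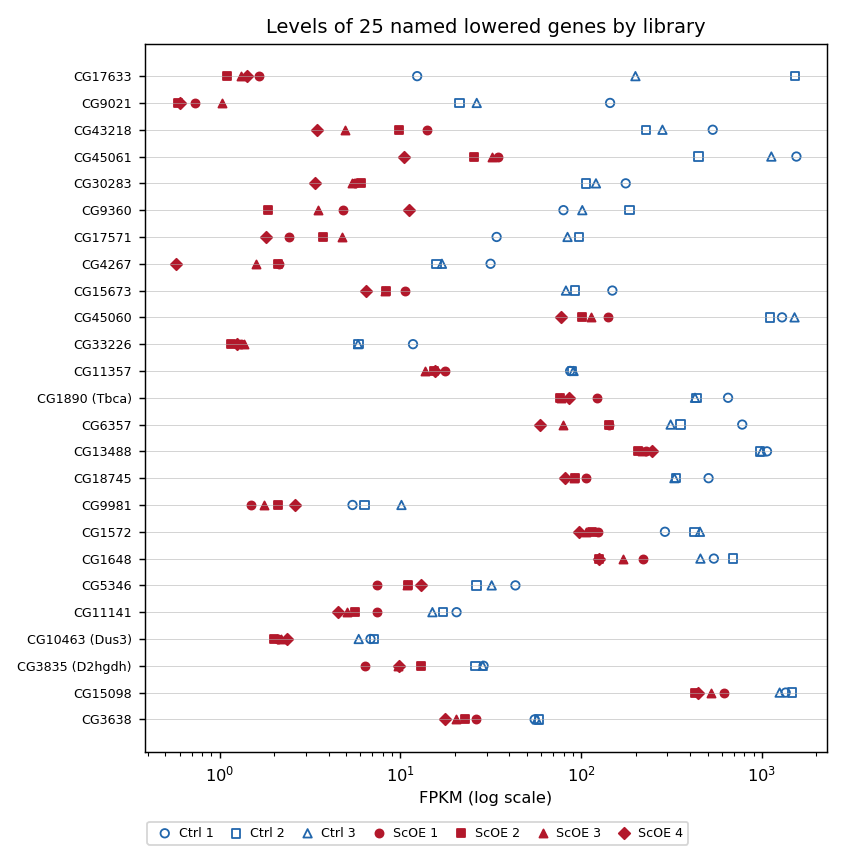
FPKM on a log axis in each of the 7 libraries for the 25 members named by rule, ordered by the fold between group means. Ctrl libraries (open blue) and ScOE libraries (filled red) do not overlap for any of them because the rule requires it, and CG17633 and CG9021 show the widest spread in Ctrl.

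Enzymes and carriers of the mitochondrion formed a second class of 6 genes, and their differences were narrower. It includes Mccc2, the beta subunit of methylcrotonyl-CoA carboxylase in leucine breakdown, and Acat1, an acetyl-CoA acetyltransferase. It also includes the hydroxyglutarate dehydrogenase gene D2hgdh and SCaMC, a carrier of adenine nucleotides. The fold between group means ran from 2.87 (D2hgdh) to 5.39 (SCaMC). In all 6 genes Ctrl 1 was the highest of the Ctrl libraries.

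Mccc2 (CG3267) was at 41.2, 38.5 and 33.1 FPKM in Ctrl 1 to 3 and at 11.6, 8.10, 9.40 and 8.54 FPKM in ScOE 1 to 4. Acat1 (CG10932) was at 80.9, 62.6 and 59.1 FPKM in Ctrl and at 17.8, 18.0, 16.6 and 16.5 FPKM in ScOE. Both genes had narrow ranges within each group, with means 4.00-fold and 3.92-fold lower in ScOE. The other subunit of the carboxylase, listed as CG2118 and now called Mccc1, was looked up after these values had been seen. It was at 24.7, 33.0 and 29.4 FPKM in Ctrl and at 20.8, 20.3, 22.4 and 21.8 FPKM in ScOE. Its log2 difference, on the scale of log2(FPKM + 1), was -0.42 ± 0.13 (SE, adjusted p = 0.0352 in limma), and its lowest Ctrl value was 1.10 times its highest ScOE value.

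SCaMC (CG32103) was the most abundant of the class, at 367, 174 and 223 FPKM in Ctrl and at 45.3, 53.8, 48.3 and 41.5 FPKM in ScOE. Ctrl 1 held 2.11 times the level of the lowest Ctrl library for SCaMC, whereas the ScOE libraries were close together.

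Other enzymes made up 9 members. CG9360, whose synonym FOHSDR refers to a short-chain dehydrogenase acting on farnesol, showed the largest difference of these, 22.9-fold between means. It was at 79.7, 185 and 101 FPKM in Ctrl and at 4.78, 1.84, 3.51 and 11.2 FPKM in ScOE. CG10527 carries a synonym, FAMeT, for a farnesoic acid O-methyltransferase, and its mean was 3.47-fold lower in ScOE. AgmNAT (CG15766), which acetylates agmatine, was at 16.0, 9.63 and 13.8 FPKM in Ctrl and at 1.68, 1.29, 1.61 and 1.79 FPKM in ScOE.

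CG11357, with synonyms that name a beta-1,3 glycosyltransferase, had the narrowest Ctrl range of all members. It was at 86.8, 88.6 and 90.7 FPKM in Ctrl and at 17.6, 15.4, 13.6 and 15.5 FPKM in ScOE. The glucuronosyltransferase family gene Ugt305A1 (CG18869), the dihydrouridine synthase gene Dus3, the phosphatase CG10376, the dehydrogenase CG31548 and the aldo-keto reductase CG10863 were 2.62-fold to 3.06-fold lower in the mean.

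Membrane proteins and trafficking factors numbered 7. They were the choline transporter-like gene Ctl2, the chloride channel gene Cftr, the sodium-coupled transporter CG10444, CG3638 of the tweety family, CG32579 (synonym XKR), the sorting nexin gene Snx27 and Reepl1. Fold between means ran from 2.53 (Cftr) to 4.47 (CG32579). CG3638 was at 55.2, 58.4 and 56.8 FPKM in Ctrl and at 26.0, 22.7, 20.2 and 17.6 FPKM in ScOE. Cftr (CG5789) was at 6.93, 6.52 and 6.39 FPKM in Ctrl and at 2.72, 2.46, 2.36 and 2.90 FPKM in ScOE. Reepl1 (CG11697) varied most within ScOE, at 2.98, 1.18, 8.75 and 7.84 FPKM, against 24.4, 24.3 and 19.2 FPKM in Ctrl.

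The remaining 9 genes with a symbol or synonym had mixed roles, among them protein folding, the cytoskeleton and ubiquitin ligation. Tbca (CG1890), a tubulin folding cofactor, was at 649, 434 and 426 FPKM in Ctrl and at 122, 76.0, 76.9 and 85.6 FPKM in ScOE. Its fold between means, 5.57, was the largest of this class. CG14207, a small heat shock protein gene with the synonym HspB8, was at 239, 153 and 150 FPKM in Ctrl and at 61.6, 64.6, 73.5 and 54.5 FPKM in ScOE. LRR (CG1399, synonym Carmil), which acts on actin capping, was at 75.7, 101 and 108 FPKM in Ctrl and between 26.7 and 35.3 FPKM in ScOE. The cullin gene Cul6, the dynein light chain gene ODA-Dnal1, axed, sigmar, Mnr and Mayo had folds of 2.71 to 3.82.

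The 64 genes with no class included those with the largest differences. CG9021 had the largest gap between groups, with a lowest Ctrl value 20.6 times the highest ScOE value. It was at 144, 21.2 and 26.4 FPKM in Ctrl and at 0.727, 0.586, 1.03 and 0.606 FPKM in ScOE. Without Ctrl 1 its log2 difference, on the scale of log2(FPKM + 1), went from -4.69 to -3.83. CG43218 was at 534, 228 and 281 FPKM in Ctrl and at 14.0, 9.82, 4.96 and 3.46 FPKM in ScOE. CG17633 had the largest fold between means and also the most unequal Ctrl libraries, with 12.4, 1525 and 199 FPKM, against 1.65, 1.09, 1.31 and 1.41 FPKM in ScOE. CG4267 was at 31.5, 15.8 and 17.0 FPKM in Ctrl and at 2.13, 2.11, 1.60 and 0.570 FPKM in ScOE.

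Some of these genes were among the more abundant transcripts of the Ctrl cells. Of the 101 genes 31 had a Ctrl mean of at least 100 FPKM and 4 of at least 1000 FPKM. The median Ctrl mean was 56.8 FPKM, and it was 70.7 FPKM in the 141 genes without a CG number that met the same limits. These levels entered the rule and are given as a description. CG15098 had the highest mean, at 1352, 1469 and 1252 FPKM in Ctrl and at 617, 424, 519 and 443 FPKM in ScOE. CG13488 was at 1066, 976 and 996 FPKM in Ctrl and at 227, 206, 218 and 245 FPKM in ScOE. Both had narrow ranges in each group, in contrast to CG45061, at 1550, 446 and 1126 FPKM in Ctrl and 34.7, 25.4, 31.9 and 10.4 FPKM in ScOE.

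CG1648, CG6357, CG1572 and CG18745 had Ctrl means of 389 to 563 FPKM and folds of 3.52 to 4.55. CG1648 had 542, 690 and 456 FPKM in Ctrl against 219.8, 125, 169 and 126 FPKM in ScOE. CG18745 had 506, 333 and 328 FPKM in Ctrl against 106, 92.7, 91.1 and 81.4 FPKM in ScOE. Ctrl 1 was lowest for CG1572, with 290.5, 424 and 454 FPKM in Ctrl against 124, 114.8, 106 and 97.8 FPKM in ScOE. CG6357 was at 777, 354 and 312 FPKM in Ctrl and at 142, 143, 79.3 and 59.1 FPKM in ScOE. For this gene Ctrl 1 stood above the other Ctrl libraries, and ScOE 1 and 2 above ScOE 3 and 4.

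The other 48 genes without a class had Ctrl means of 7.92 to 384 FPKM, with a median of 43.5 FPKM, and folds of 2.32 to 21.8 with a median of 4.11. In 8 of them the Ctrl libraries differed by 2 times or more. CG5835 was such a gene, with 414, 141 and 123 FPKM in Ctrl 1 to 3 against 45.9, 51.6, 48.3 and 31.1 FPKM in ScOE 1 to 4. CG7900 had the same shape at a lower level, with 33.7, 7.49 and 9.43 FPKM in Ctrl against 3.01, 2.97, 2.83 and 3.25 FPKM in ScOE. For both, most of the Ctrl mean came from Ctrl 1, and the other Ctrl libraries were nearer to the ScOE range.

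A different order was seen in CG31955, with 113, 159 and 192 FPKM in Ctrl against 19.5, 24.2, 26.5 and 13.4 FPKM in ScOE. CG3397 was also highest in Ctrl 3, with 10.1, 12.7 and 29.1 FPKM against 2.73, 2.01, 1.44 and 2.74 FPKM in ScOE. The smallest fold between means was that of CG15717, with 44.5, 42.2 and 53.9 FPKM in Ctrl and 19.7 to 20.7 FPKM in ScOE. Its ScOE libraries were almost level with each other.

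**Figure D3:**
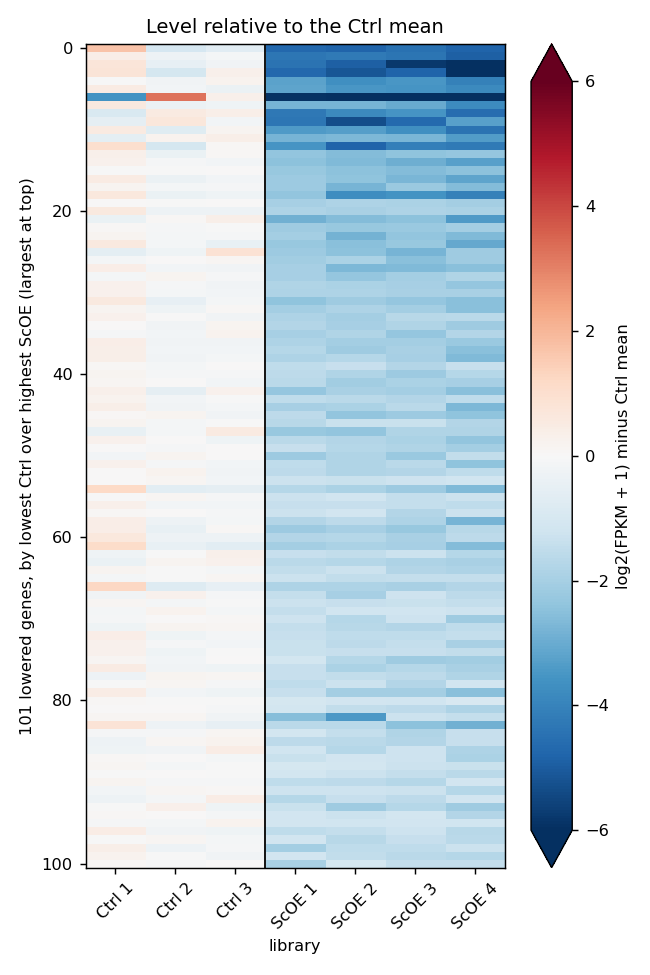
Level of each of the 101 lowered genes in each library, as log2(FPKM + 1) minus the gene's Ctrl mean, ordered from the largest to the smallest ratio of lowest Ctrl to highest ScOE. Ctrl columns are near 0 for most genes and ScOE columns are below it by construction, while Ctrl 1 departs from the other Ctrl libraries in several rows.

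The order of the libraries within a group was not set by the rule. Ctrl 1 was the highest Ctrl library for 63 of the 101 genes (62.4%), against 51.0% of the other 2154 CG-numbered genes above the Ctrl level. Among the 141 genes without a CG number that met the same limits it was highest for 48.9%. Ctrl 2 and Ctrl 3 were highest for 19 of the 101 genes each. Of the 17 members whose Ctrl libraries differed at least 2 times from each other, Ctrl 1 was highest in 13. In ScOE, library 1 was highest for 49 genes (48.5%, against 34.8% of the other CG-numbered genes) and library 4 was lowest for 54 (53.5%, against 39.0%). In the 141 genes without a CG number these percentages were 46.1% and 48.9%, near those of the 101 genes. Both libraries numbered 1 were highest in their group for 32 members, of the 63 for Ctrl 1 and the 49 for ScOE 1. No background share is given for this overlap, so it does not show that these libraries are linked. With Ctrl 1 and ScOE 1 both left out, an alternative added after the data were seen, 168 CG-numbered genes met the limits, all 101 members among them. Leaving out libraries can only add genes under this rule, so no member could have been lost.

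Levels of other cell types were set beside these values. Named digestive enzymes of enterocytes, such as the Jonah proteases, trypsins, amylases and maltases, summed to 2079, 16290 and 61580 FPKM in Ctrl 1, 2 and 3. In ScOE 1 to 4 they summed to 923, 12711, 8075 and 20231 FPKM, so the groups overlapped. Ctrl 1, in which most lowered genes were highest, was the Ctrl library with the lowest sum. Of 50 tested digestive enzymes 6 fell and 1 rose in limma on log2(FPKM + 1), where 21.3% of all 8421 tested genes fell (1796) and 17.6% rose (1484). This split moved to 1247 and 1924 genes with upper quartile scaling. With equal FPKM totals it moved to 274 and 4555 genes, and the median log2 difference of all genes shifted to 0.69. The number that fell was 10 without Ctrl 1, and 3 without Ctrl 3, ScOE 2 or ScOE 3. Their median log2 difference was -0.51, against -0.08 for all tested genes, and turned to 0.08 without Ctrl 3, to 0.13 without ScOE 1 and to 0.26 with equal FPKM totals.

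Jon99Fii was at 61.4, 886 and 173 FPKM in Ctrl and between 4.10 and 6.03 FPKM in ScOE (log2 -5.14 ± 0.79, SE, adjusted p = 0.00237 in limma). Jon65Aii was at 14.1, 310 and 28.7 FPKM in Ctrl and between 1.29 and 3.81 FPKM in ScOE (log2 -4.09 ± 0.95, adjusted p = 0.0133). These Jonah proteases were highest in Ctrl 2, as was CG17633. The family did not share this order. Jon65Ai and Jon99Fi were also highest in Ctrl 2, but Jon25Bi and Jon99Ci were highest in Ctrl 3, as was the sum of the digestive enzymes. The maltase gene Mal-A2 rose, from 10.04 ± 10.9 to 39.9 ± 23.8 FPKM (SD, log2 2.15 ± 0.71, SE, adjusted p = 0.0483).

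Enterocyte absorption and identity markers fell for 3 of 22 tested genes and rose for 5. Lsd-2, a lipid droplet gene, fell from 153 ± 48.2 to 38.0 ± 13.3 FPKM, and betaTub97EF, a gut tubulin, fell from 39.2 ± 4.23 to 19.8 ± 1.84 FPKM (SD, n = 3 and 4). The zinc transporter gene ZnT35C rose from 0.0367 ± 0.0344 to 6.18 ± 1.66 FPKM and the glutamine synthetase gene Gs1 from 7.44 ± 2.83 to 30.7 ± 5.98 FPKM. The list summed to between 2447 and 4096 FPKM in Ctrl and to between 3098 and 7162 FPKM in ScOE. The enterocyte identity factor nub was at 1.02, 6.01 and 15.0 FPKM in Ctrl and between 0.288 and 8.80 FPKM in ScOE.

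Progenitor markers, which include the targets of Notch signalling in enteroblasts, summed to between 7312 and 7589 FPKM in Ctrl and to between 2284 and 3067 FPKM in ScOE. Of 13 tested genes 6 fell and 1 rose. Their median log2 difference was -0.40 and turned to 0.45 with equal FPKM totals. Most of the sum came from 3 genes of the E(spl) complex that fell, of which E(spl)malpha-BFM had a Ctrl mean of 3905 FPKM and E(spl)m3-HLH of 1528 FPKM. The 6 genes that did not pass were esg (log2 -0.34), N (-0.40), hdc (-0.20), klu (-0.04), mira (-0.02) and Dl (1.13). The cytokine gene upd3 fell from 174 ± 43.0 to 12.4 ± 2.18 FPKM (SD, log2 -3.69 ± 0.20, SE, adjusted p = 3.5e-05 in limma), and the Notch target E(spl)mbeta-HLH fell from 982 ± 127 to 285 ± 42.1 FPKM. The Notch pathway gene spdo rose from 3.77 ± 0.835 to 27.5 ± 3.82 FPKM. In this list 5 genes met the limits that define the lowered CG-numbered genes, namely upd3, Sox100B and the 3 E(spl) genes. Among all 5619 genes at 5 FPKM or more in every Ctrl library 4.31% met them. Enteroendocrine markers rose for 14 of 15 genes, among them the transcription factor gene pros, from 1.71 ± 0.499 to 49.7 ± 7.89 FPKM, and phyl, from 0.119 ± 0.105 to 27.4 ± 3.80 FPKM. The other gene, NPF, did not pass (log2 2.12, adjusted p = 0.154 in limma).

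**Figure D4:**
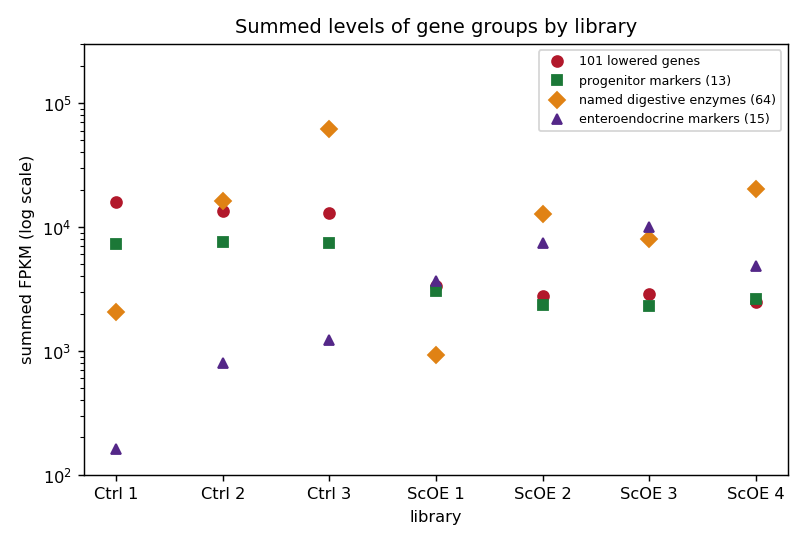
Summed FPKM, on a log axis, of the 101 lowered genes and of the progenitor, digestive enzyme and enteroendocrine lists in each library. The lowered genes are at a similar level in the 3 Ctrl libraries and, because the rule requires it, lower in all 4 ScOE libraries. The sum of the progenitor markers, which comes mostly from genes of the E(spl) complex, is also similar within Ctrl and lower in ScOE. The digestive enzymes range from 2079 to 61580 FPKM within Ctrl and overlap between groups.

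Most markers of cells outside the epithelium were near 0. Of 17 visceral muscle markers 3 were tested and 2 fell. Zasp52 fell from 19.9 ± 0.944 to 10.9 ± 2.87 FPKM, and the tropomyosin gene Tm1, which is not limited to muscle, fell from 680 ± 60.0 to 511 ± 54.9 FPKM but had a log2 difference of 0.45 with equal FPKM totals. The muscle myosin gene Mhc was at or below 0.384 FPKM in every Ctrl library and at 4.54 FPKM in ScOE 3. Other contractile genes were high in ScOE 3 as well, with Act57B at 38.4 FPKM, Mlc2 at 35.5 FPKM and wupA at 27.7 FPKM, against 2.62 FPKM or less in each of the other libraries. Among 14 hemocyte and fat body markers 3 were tested and 2 fell. These were crq, from 104 ± 24.8 to 49.7 ± 6.04 FPKM, and srp, from 5.96 ± 0.738 to 3.98 ± 0.569 FPKM (SD, n = 3 and 4), the latter with a log2 difference of 0.23 with equal FPKM totals. The hemocyte marker Hml was at or below 0.0827 FPKM in all libraries. Of 7 tracheal markers btl alone was tested, and it fell from 3.97 ± 0.704 to 0.954 ± 0.367 FPKM, with trh at or below 0.249 FPKM and uif at 0 throughout. The part of these cells in the levels of the lowered genes was not tested.

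Gene structure and position were not used in choosing the members. On BDGP6, the build named in the submitters' notes, 26 of the 101 genes lay on chromosome 2R, 22 on X, 21 on 3R, 17 on 3L and 15 on 2L. Chromosome 2R held 25.7% of them and 19.6% of the other CG-numbered genes above the Ctrl level, and X held 21.8% against 16.9%. Median coding length was 1065 bases against 1013 bases, and the median number of exons in the canonical transcript was 4 against 3. A single exon was annotated for 14 members (13.9%, against 11.5%). A coding length of 300 bases or less was found for 6 members, or 5.94%, the same percentage as in the other genes.

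Those 6 short genes were CG45060, CG45061, CG42867, CG3348, CG43107 and CG30154, and their levels spanned a wide range. CG3348, with 294 coding bases, was at 416, 98.8 and 218 FPKM in Ctrl and at 17.2, 6.45, 11.2 and 9.99 FPKM in ScOE. CG42867, with 201 coding bases, was at 96.0, 38.7 and 73.8 FPKM in Ctrl and at 5.32, 5.66, 4.11 and 2.04 FPKM in ScOE. In both, Ctrl 1 was the highest and Ctrl 2 the lowest of the Ctrl libraries. CG30154 was instead lowest in Ctrl 1, at 107, 135 and 209 FPKM in Ctrl, with 26.8 to 41.1 FPKM in ScOE.

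Several members were direct neighbours. In 8 cases a member was followed by another within 5 kb with no annotated gene between them, which involved 15 genes, and in 7 of these cases the distance was under 1 kb. In 5 cases both genes were on the same strand and in 3 they faced away from each other from adjacent starts. No background share is given for these counts, so they do not show that members cluster more than other genes.

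The longest run was that of the proteases CG30287, CG33226 and CG30283 on chromosome 2R, which lie at 21536894 to 21538015, 21538250 to 21539293 and 21539584 to 21540573 on the minus strand. Their reference entries share the older annotation CG10450. All 3 lie within the span of Egfr, the epidermal growth factor receptor gene, on the opposite strand. Egfr itself was at 21.6, 28.2 and 18.3 FPKM in Ctrl and at 16.3, 15.5, 15.3 and 20.8 FPKM in ScOE, and did not pass (log2 -0.39 ± 0.18, SE, adjusted p = 0.128 in limma). Within the run, Ctrl 1 was the highest Ctrl library for CG33226 and CG30283 and the lowest for CG30287, which was at 11.7, 20.6 and 23.4 FPKM.

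CG45060 (9868068 to 9868568) and CG45061 (9871098 to 9871702) lie 2529 bases apart on the minus strand of X. Both have 228 coding bases and share older annotations. Their sequences were not compared, and whether reads were divided between them was not tested. CG45060 was at 1291, 1105 and 1513 FPKM in Ctrl and at 140, 101, 114 and 77.4 FPKM in ScOE. The nearest tested gene on one side, Ser7, fell from 2.54 ± 0.659 to 0.130 ± 0.0363 FPKM (SD, log2 -1.63 ± 0.16, SE, adjusted p = 0.000362 in limma). On the other side CG32695 was at 15.0, 19.9 and 66.7 FPKM in Ctrl and between 2.78 and 32.0 FPKM in ScOE, and did not pass (adjusted p = 0.206).

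CG10433 and CG15673 lie 267 bases apart on the minus strand of 2R, at 21605676 to 21608125 and 21608393 to 21613071. The level of CG15673 was 149, 92.5 and 82.3 FPKM in Ctrl and 10.6, 8.33, 8.20 and 6.41 FPKM in ScOE. CG10433 was at 44.1, 21.4 and 23.3 FPKM in Ctrl and at 4.64, 1.17, 1.40 and 0.727 FPKM in ScOE. Both were highest in Ctrl 1 and in ScOE 1, and the annotation places the same antisense RNA across both.

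CG31313 and CG8066, 181 bases apart on 3R, differed in level. CG8066 was at 227, 187 and 195 FPKM in Ctrl and at 48.1, 27.1, 38.3 and 31.4 FPKM in ScOE, while CG31313 had a Ctrl mean of 11.1 FPKM and was 3.41-fold lower in ScOE. The pairs facing away from each other were CG15098 with CG15083 (487 bases apart), CG30156 with CG17002 (330 bases) and CG9981 with CG4301 (386 bases). In these 3 pairs the fold between means ran from 2.71 to 3.92. Tested genes overlapping these pairs were CG15099, opposite CG15083 (log2 -0.82), and vimar, on the strand of CG30156 (-0.16). With overlapping genes left out, the nearest tested genes of the pairs were CG15097 (log2 0.97) and CG15100 (-0.37), Cyp6u1 (0.56) and Tsp42Ea (-1.81), and TH1 (0.53) and Traf-like (1.65), respectively. Tsp42Ea itself met the same FPKM limits, with a lowest Ctrl value 2.69 times its highest ScOE value.

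**Figure D5:**
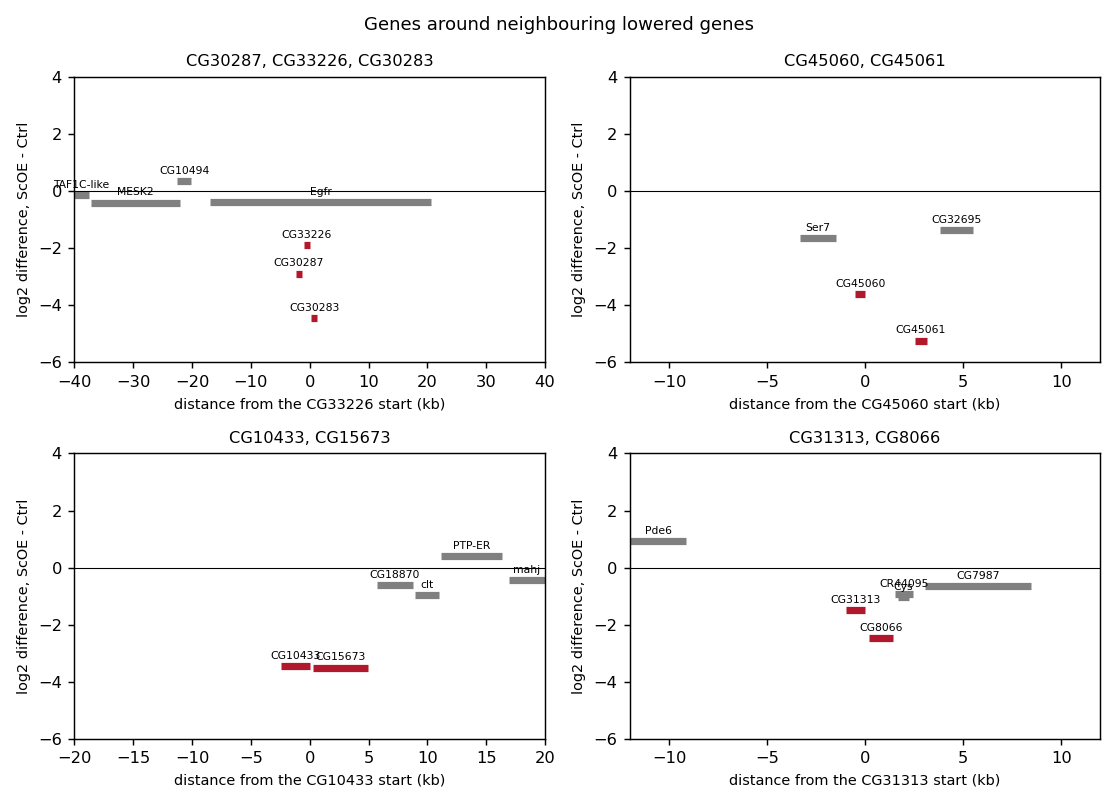
Log2 difference between ScOE and Ctrl, on the scale of log2(FPKM + 1), of tested genes around 4 groups of neighbouring lowered genes, plotted against distance in kb from the start of the gene named on each axis. Bars span each gene, with lowered genes in red and other tested genes in grey. Egfr, which spans 3 of the lowered proteases, is at -0.39. In each panel the grey genes lie closer to 0 than the red ones, which were chosen for being lower in ScOE.

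Beyond such runs, 181 tested genes were the nearest on either side of a member, with members and genes overlapping a member left out. Their distance from the member ran from 3 bases (CG6071) to 326119 bases (Ahcy89E). Of the 181 genes 48 fell (26.5%, against 21.3% of all tested genes) and 41 rose, where 17.6% of all tested genes did. Their median log2 difference was -0.11 against -0.08. With equal FPKM totals 8 of them fell.

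The span of another annotated gene overlapped 51 of the 101 members, on the opposite strand for 42 and on the same strand for 11. This count also has no background share, so it does not set the members apart from other genes. Spans include introns, and overlap between exons was not measured. Whether fragments were counted by strand is not given in the sources used here. Where exons on opposite strands overlap, the reads of member and partner may therefore not be told apart. Among 29 tested partners 13 fell, 4 rose and the median log2 difference was -0.45. Of all tested genes 21.3% fell and 17.6% rose, with a median log2 difference of -0.08. The partners named next were chosen after their values had been seen. RhoGEF4, opposite CG8607, rose (log2 1.94 ± 0.25, SE, adjusted p = 0.0011 in limma), while Pect, opposite CG15482, fell (log2 -1.92 ± 0.20, adjusted p = 0.00046).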

How the data were processed

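The authors deposited FPKM values for each library. The submitters' processing notes name TopHat2 2.0.10, Cufflinks 2.2.1 and the build BDGP6, without the role of each. Strand settings and scaling between libraries are not given in the sources used here. FPKM does not keep read numbers, so depth and counting error are unknown.

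Members were found by the stated limits on the deposited FPKM. Gene spans, strands and coding lengths came from Ensembl release 115 (BDGP6, the same assembly), and names from the reference gene tables. Members and lists were chosen with earlier results of these data known. The 25 members named by rule were the 10 with the largest ratio of lowest Ctrl to highest ScOE, the 10 with the highest Ctrl mean, 3 at each limit and 2 each with the widest and narrowest Ctrl range. The other members named were picked by annotation or position, after their values had been seen. Members not named singly are covered by counts and ranges. Grouping by protein similarity was planned and not done, since no protein sequences were used here.

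For genes outside the set, limma 3.58.1 (R 4.3.3) compared ScOE with Ctrl on log2(FPKM + 1), two-sided and with a mean-variance trend. It covered the 8421 genes reaching 1 FPKM in 3 or more libraries, and p-values were adjusted over all 8421 by the Benjamini-Hochberg method and called at 0.05. The fit was tested on simulated data with independent noise for each gene and no shift of whole libraries. That test therefore does not cover differences between libraries such as those in FPKM totals. Of 163 list entries 161 were matched. Named list genes were up to 2 falling and 2 rising with the smallest adjusted p. Alternatives were other limits, pseudocounts, filters, scalings, no trend, a replicate block and each library left out.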

Additional observations from a re-analysis of the deposited data

Results flagged for a closer look

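In 2 of the 46 genes checked, 1 of the 4 ScOE libraries lay unusually far from the other 3 (Dixon's criterion at 95%, which chance meets in about 1 of 20 groups). E(spl)mbeta-HLH was at 348 FPKM in ScOE 1 and between 262 and 265 FPKM in the others. For betaTub97EF the level was 22.5 FPKM in ScOE 3 and 18.8 to 19.0 FPKM in the others. None of the 25 lowered genes named by rule met this criterion.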

How the results depend on the processing

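The 101 lowered genes became 72 with upper quartile scaling, 95 with trimmed-mean scaling and 81 with quantile scaling, 78 of the latter being members. They became 215 with a limit of 1.5 times between groups, 37 with 3 times, and 21 with equal FPKM totals. They became 29 when CR40469, an RNA holding 12.4% to 29.5% of summed FPKM, was left out of those totals, and 168 without both libraries numbered 1 (both chosen after seeing the data). Leaving out 1 library gave 105 to 145, the latter without Ctrl 1. Counts with libraries left out cannot fall below 101, since the rule takes the lowest Ctrl and the highest ScOE value. Equal totals also gave 274 genes that fell and 4555 that rose among all genes, 8 that fell among the neighbours of members, and 1, 0 and 0 that fell among absorption, muscle and hemocyte and fat body markers. It reversed Tm1 (0.45) and srp (0.23). Muscle markers that fell numbered 1 with upper quartile, trimmed-mean or quantile scaling. Hemocyte and fat body markers that fell numbered 1 with upper quartile scaling. The tracheal marker was not tested at 5 FPKM, leaving 0. Leaving out 1 library gave 3 to 10 digestive enzymes, 1 to 2 muscle and 1 to 2 hemocyte and fat body markers. The log2 difference of sc was 5.77, and 6.51, 4.37 and 6.44 with pseudocounts of 0.1 and 5 and equal totals. The causes were not tested. Same-numbered libraries did not deviate together throughout (correlations 0.52, -0.04 and 0.08), and the fit with the replicate block also left out ScOE 4, whose number has no Ctrl partner. It gave 1368 genes that fell and 1180 that rose, and 1 muscle and 1 hemocyte and fat body marker that fell. Leaving out ScOE 4 without the block gave 1598, 1369, 1 and 1. For single named genes 593 values kept direction and call, 57 moved, 28 lost the call and 2 reversed. Any lowered genes among them had a direction set largely by the rule, so their part of these counts is no test. Depth limits could not be given from FPKM.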
